A study of Mus musculus with 12 samples.

Results

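The levels of 10 genes of sterol sensing and sterol export were followed in 3T3-L1 cells, a mouse line of preadipocytes that turns into fat cells, after knockdown of the protein arginine methyltransferase PRMT1. The genes were picked by name out of the 39423 genes of the deposited tables. They were the liver X receptor genes Nr1h3 and Nr1h2, the exporter genes Abca1 and Abcg1, the apolipoprotein gene Apoe, Mylip, Lpcat3, and the Aster genes Gramd1a, Gramd1b and Gramd1c. The genes were proposed with levels in these libraries in view, and which values chose each of them is not recorded. The tests given here were fitted on all genes, and for these 10 genes they describe the 12 libraries and are no independent support.

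Cells carried control siRNA (siCtrl, labelled NC) or siRNA against PRMT1 (siPRMT1), and all of them were treated with MDI (also written DMI), an adipogenic cocktail of insulin, dexamethasone and a phosphodiesterase inhibitor. RNA was taken after 24 h (day 1) or 72 h (day 3), with 3 libraries in each of the 4 groups. The knockdown was transient and in 1 cell line, no untreated cells are among these libraries, and the siRNA used for sequencing is not named in the labels. The labels do not say whether the libraries of a group came from separate cultures, so p-values measure only the spread between these libraries.

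Liver X receptors are nuclear receptors that sense oxysterols. They bind DNA together with retinoid X receptors and switch on genes that move cholesterol out of cells, among them Abca1 and Abcg1. In fat cells, which hold a large store of free cholesterol, the exporters, Apoe and the Aster proteins take part in moving sterol between membranes and out to lipoproteins. LXRα, the product of Nr1h3, is a receptor that fat cells acquire as they differentiate, whereas LXRβ, the product of Nr1h2, is found in most cells.

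Libraries held 15116462 to 42357137 counts. The Prmt1 level was 82.9, 83.4 and 91.3 FPKM (fragments scaled to gene length and to the mapped reads of the library) in siCtrl cells at 24 h and 43.8, 38.6 and 41.4 FPKM in siPRMT1 cells. At 72 h it was 111, 120 and 140 FPKM against 62.0, 71.7 and 68.5 FPKM, so that 48.1% and 54.5% of the control level remained at the 2 times. The third siCtrl library at 24 h stood apart from the other libraries of its group, with a chi-square per gene of 50.6 and 30.8 against replicates 1 and 2, where the pairs of the other groups had 4.14 to 15.8. The knockdown values of the 10 genes and of the named pathway genes at 24 h are therefore also given without it. The summed level of 6 adipocyte markers was 144 to 149 FPKM in siCtrl and 109 to 123 FPKM in siPRMT1 cells at 24 h, and 2068 to 2239 against 1627 to 1843 FPKM at 72 h. The sum of 7 preadipocyte or fibroblast markers was 1478 to 1557 against 1362 to 1398 FPKM at 24 h, and 483 to 527 against 611 to 697 FPKM at 72 h. Some of the 7 went against their sum by mean level. At 24 h these were Thy1 (76.0 in siCtrl and 84.5 FPKM in siPRMT1 cells) and Pdgfrb (17.4 and 19.4 FPKM). At 72 h it was Dlk1 (21.5 and 20.6 FPKM), and the other markers went with the sum at each time. In bulk RNA, fewer cells of a type and less RNA per cell cannot be told apart, and the part of these marker differences in the results on the sterol genes was not tested. The summed level of 8 macrophage markers stayed between 3.95 and 7.08 FPKM, with Ptprc and C1qa at 0 in all 12 libraries, and that of 4 endothelial markers stayed between 0.12 and 0.88 FPKM.

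A gene was called higher or lower when its Benjamini-Hochberg adjusted p in edgeR's quasi-likelihood test was under 0.05 and its log2 fold change was beyond 0.5 in either direction. At 24 h of MDI, 2 of the 9 genes that could be tested fell with PRMT1 knockdown, Nr1h3 and Abcg1, and 0 rose. Over all 13689 genes tested, 1.61% were called lower and 1.95% higher. At 72 h, 4 of 9 fell, Nr1h3, Abca1, Abcg1 and Gramd1b, and 0 rose, while 3.8% of 14039 genes were called lower and 2.84% higher. The median log2 fold change of the 9 genes was -0.04 at 24 h and -0.38 at 72 h, beside 0.01 and 0.01 over all genes tested. By FPKM, the 3 siPRMT1 libraries lay above all 3 siCtrl libraries for 2 of the 9 genes at 24 h and under them for 2, beside 19.8% and 11.9% of all genes. At 72 h they lay under them for 7 and above them for 0, beside 17.5% and 16.7% of all genes. Gramd1c had too few counts for the test in the knockdown comparisons.

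**Figure D1:**
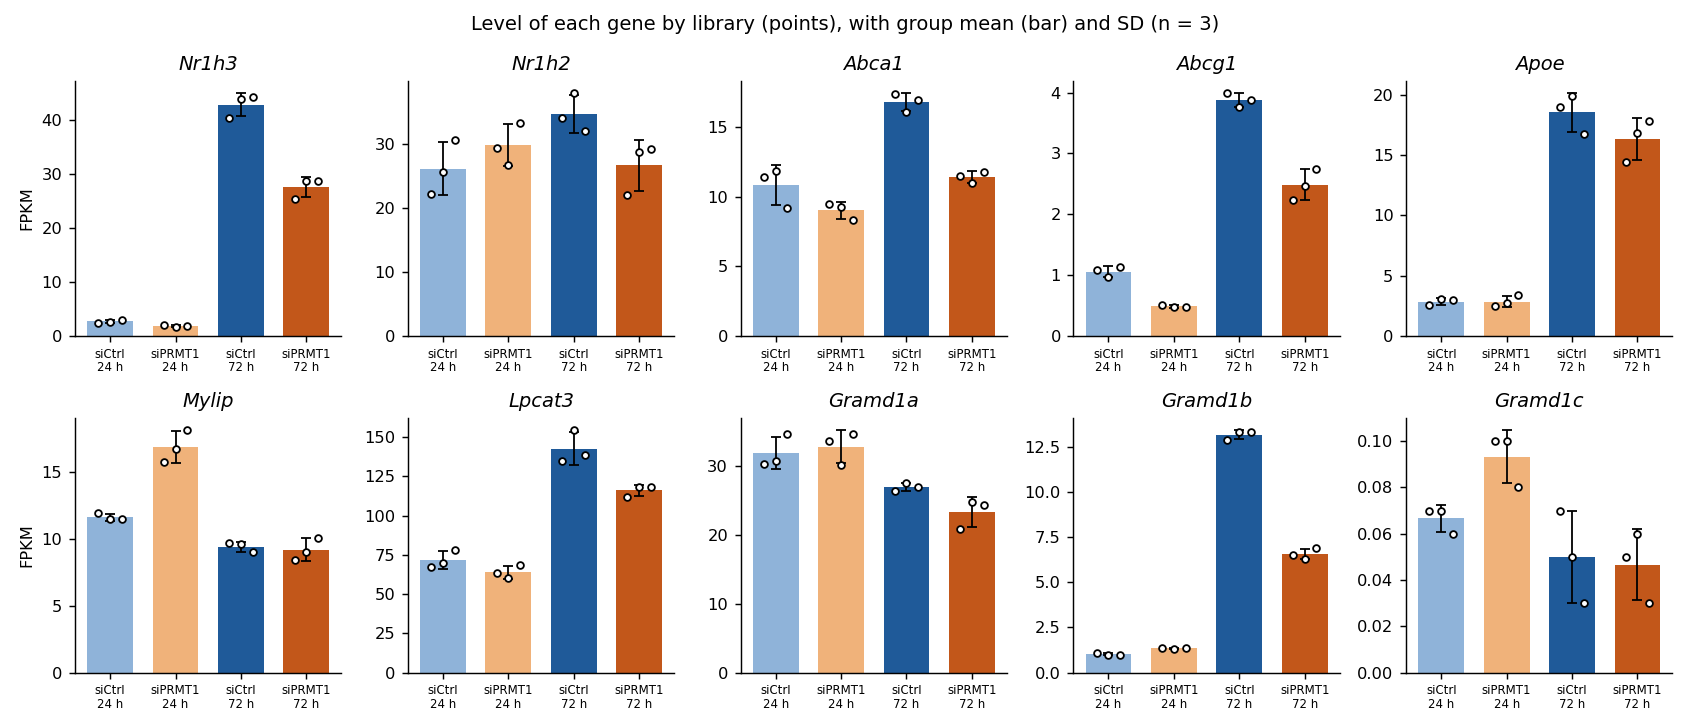
Level of each of the 10 genes in FPKM (vertical axis, a scale of its own in each panel) in the 4 groups, with 1 point for each library, the mean as a bar and the SD as an error bar (n = 3). Nr1h3 and Gramd1b had their highest levels in siCtrl cells at 72 h, with means of 42.9 and 13.2 FPKM, and Gramd1c stayed at or under 0.10 FPKM in all 12 libraries.

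Nr1h3 encodes LXRα and lies at chr2:91184061-91202829 on the minus strand (GRCm38, span of its exons in the count table). Its level in siCtrl cells was 2.42, 2.66 and 2.99 FPKM at 24 h and 40.4, 43.9 and 44.3 FPKM at 72 h. In siPRMT1 cells it was 1.93, 1.57 and 1.84 FPKM at 24 h and 25.4, 28.7 and 28.7 FPKM at 72 h. At each time all siPRMT1 libraries lay under all siCtrl libraries, and at each siRNA all 72 h libraries lay far above those of 24 h. Knockdown lowered the level by 0.64 on the log2 scale at 24 h (log2 fold change -0.64, SE 0.139, edgeR adjusted p = 0.0305) and by the same size at 72 h (-0.64, SE 0.0759, adjusted p = 4.09e-05). The call at 24 h was lost when siCtrl replicate 2 or any of the 3 siPRMT1 libraries was left out (adjusted p 0.0837 to 0.112), and it was kept without siCtrl replicate 3 (-0.57, adjusted p = 0.00977). The call at 72 h was kept in all 6 fits that left out a library. The rise from 24 h to 72 h was 15.9-fold in mean FPKM in siCtrl cells and 15.5-fold in siPRMT1 cells, and the difference between the knockdown effects at the 2 times was 0.01 on the log2 scale (SE 0.143, edgeR adjusted p = 0.968). The exons of Nr1h3 share 18 bases with those of Acp2 on the other strand, and whether the counting used strand is not stated.

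Nr1h2 encodes LXRβ (chr7:44549616-44553968, minus strand). Its level was 22.3, 25.7 and 30.6 FPKM in siCtrl and 29.4, 26.8 and 33.4 FPKM in siPRMT1 cells at 24 h, with overlapping groups. At 72 h it was 34.1, 38.0 and 32.0 FPKM against 22.1, 28.7 and 29.2 FPKM, and the groups did not overlap. The log2 fold change with knockdown was 0.14 at 24 h (SE 0.123, edgeR adjusted p = 0.535) and -0.38 at 72 h (SE 0.101, adjusted p = 0.0168), so that the second value passed the p threshold and not the fold threshold. Without siCtrl replicate 3 the value at 24 h was 0.26 (adjusted p = 0.0380), which passed the p threshold and not the fold threshold. The difference between the 2 effects was -0.50 (SE 0.182, adjusted p = 0.0861), and without that library it was called (-0.66, adjusted p = 0.00558). Per length, Nr1h3 made up 9.36% ± 0.454 (SD, n = 3) of the summed FPKM of both receptors in siCtrl cells at 24 h and 55.3% ± 2.39 at 72 h. In siPRMT1 cells the share was 5.64% ± 0.479 at 24 h and 51.0% ± 2.16 at 72 h, with no overlap between the siRNAs at 24 h (5.23% to 6.17% against 8.90% to 9.81%) and nearly touching values at 72 h (49.6% to 53.5% against 53.6% to 58.0%).

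**Figure D2:**
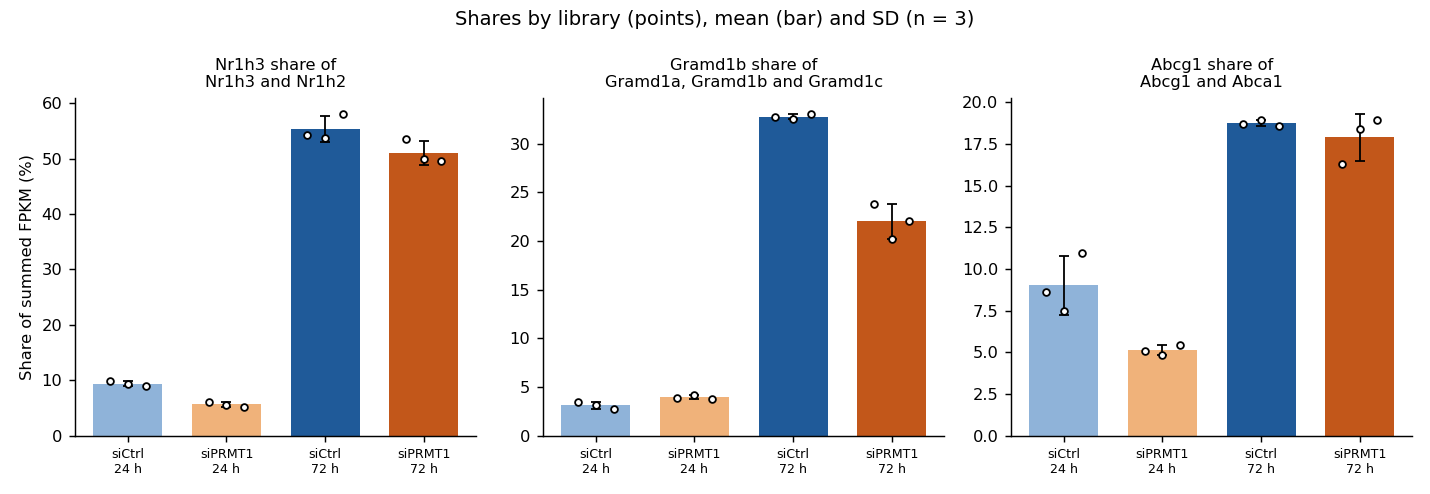
Share of summed FPKM in percent (vertical axis, from 0 in each panel) in the 4 groups, with a point for each library, the mean as a bar and the SD as an error bar (n = 3): Nr1h3 of both receptor genes, Gramd1b of the 3 Aster genes, and Abcg1 of both exporter genes. All 3 shares were higher at 72 h than at 24 h, and the Gramd1b share at 72 h was 32.8% in siCtrl and 22.01% in siPRMT1 cells.

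Abca1, which loads cholesterol and phospholipid onto lipid-poor apolipoproteins, lies at chr4:53030789-53159988 on the minus strand. The Abca1 level was 11.4, 11.9 and 9.19 FPKM in siCtrl and 9.48, 9.23 and 8.33 FPKM in siPRMT1 cells at 24 h. At 72 h it was 17.4, 16.1 and 17.0 FPKM against 11.5, 10.95 and 11.8 FPKM. The groups overlapped at 24 h and stood well apart at 72 h. Abca1 fell with knockdown at 72 h (log2 fold change -0.57, SE 0.0671, edgeR adjusted p = 4.23e-05), to 67.9% of the control mean. At 24 h the log2 fold change was -0.32 (SE 0.111, adjusted p = 0.124), and without siCtrl replicate 3 it was -0.43 (adjusted p = 5.97e-04), under the fold threshold. From 24 h to 72 h Abca1 rose in siCtrl cells (log2 fold change 0.57, SE 0.101, adjusted p = 8.17e-04), a call that was lost without siCtrl replicate 3 at 24 h (0.46). In siPRMT1 cells the change over time was 0.33 (SE 0.0673, adjusted p = 7.77e-04), under the fold threshold, and the difference between the knockdown effects at the 2 times did not pass the test (-0.23, SE 0.122, adjusted p = 0.241).

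Abcg1, which moves sterol to lipoprotein particles and between leaflets of cell membranes (chr17:31057694-31117984, plus strand), had the lowest level of the 9 tested genes in both siPRMT1 groups and in siCtrl cells at 72 h. It was at 1.08, 0.96 and 1.13 FPKM in siCtrl and 0.51, 0.47 and 0.48 FPKM in siPRMT1 cells at 24 h. At 72 h it was at 3.99, 3.77 and 3.87 FPKM against 2.24, 2.47 and 2.75 FPKM. The siPRMT1 libraries lay under all siCtrl libraries at each time, and siPRMT1 cells held 46.1% of the control mean at 24 h and 64.1% at 72 h. Abcg1 fell by 1.18 on the log2 scale at 24 h (log2 fold change -1.18, SE 0.127, edgeR adjusted p = 0.00325) and by 0.65 at 72 h (-0.65, SE 0.0946, adjusted p = 2.81e-04). Both calls were kept in every fit that left out a library, and without siCtrl replicate 3 the value at 24 h was -1.14 (adjusted p = 1.20e-04). On log2(FPKM + 1) the value at 72 h was -0.49, under the fold threshold, and at 24 h it was -0.47 with no filter on low FPKM, a scale that understates changes of low genes. The effect at 72 h was smaller by 0.55 on the log2 scale (interaction 0.55, SE 0.154, edgeR adjusted p = 0.0303), a call that 10 of the 12 fits leaving out a library did not make (0.47 to 0.59 in those 10), and on log2(FPKM + 1) the interaction was -0.02. Abcg1 rose 3.67-fold in mean FPKM from 24 h to 72 h in siCtrl cells and 5.11-fold in siPRMT1 cells. As a share of both exporters, Abcg1 made up 9.03% ± 1.76 in siCtrl and 5.13% ± 0.302 in siPRMT1 cells at 24 h, and 18.7% ± 0.192 and 17.9% ± 1.41 at 72 h (SD, n = 3).

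Apoe encodes the apolipoprotein that carries exported lipid (chr7:19696244-19699188, minus strand). Its level was 2.56, 3.06 and 2.94 FPKM in siCtrl and 2.46, 2.72 and 3.38 FPKM in siPRMT1 cells at 24 h, and 19.0, 19.9 and 16.8 FPKM against 14.4, 16.8 and 17.8 FPKM at 72 h. The siRNA groups overlapped at both times, while every 72 h library lay above every 24 h library. The log2 fold change with knockdown was -0.04 (SE 0.153, edgeR adjusted p = 0.907) at 24 h and -0.18 (SE 0.0977, adjusted p = 0.219) at 72 h, neither passing the test, and without siCtrl replicate 3 the value at 24 h was -0.02 (adjusted p = 0.952). Apoe rose over time by 2.64 on the log2 scale in siCtrl (SE 0.129, adjusted p = 1.35e-07) and by 2.51 in siPRMT1 cells (SE 0.119, adjusted p = 5.01e-10).

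Mylip encodes IDOL, a ubiquitin ligase that is an LXR target and sends lipoprotein receptors to lysosomes (chr13:45389742-45411940, plus strand). Its level was 11.9, 11.5 and 11.5 FPKM in siCtrl and 15.7, 16.7 and 18.2 FPKM in siPRMT1 cells at 24 h. At 72 h it was 9.66, 9.58 and 9 FPKM against 8.44, 9.03 and 10.1 FPKM. All siPRMT1 libraries lay above all siCtrl libraries at 24 h, and the groups overlapped at 72 h. The log2 fold change was 0.48 at 24 h (SE 0.0782, edgeR adjusted p = 0.0121), just under the fold threshold, and -0.04 at 72 h (SE 0.0885, adjusted p = 0.802). Without siCtrl replicate 3 the value at 24 h was 0.47 (adjusted p = 5.80e-04), and without siCtrl replicate 1 it was called (0.51, adjusted p = 0.0308). The difference between the 2 effects was called (interaction -0.50, SE 0.117, edgeR adjusted p = 0.0121), and in 5 of the 12 fits without 1 library it fell under the fold threshold (-0.45 to -0.49 in those 5). Mylip fell over time in siPRMT1 cells (log2 fold change -0.89, SE 0.0805, adjusted p = 3.81e-07), and in siCtrl cells the value was -0.38 (SE 0.0911, adjusted p = 0.00518), under the fold threshold.

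Lpcat3 encodes a lysophospholipid acyltransferase that puts polyunsaturated chains into membrane phospholipid, and it is a known LXR target (chr6:124663092-124704716, plus strand). It had the highest level of the 10 genes in all 4 groups. It was at 67.1, 70.1 and 77.8 FPKM in siCtrl and 63.7, 60.0 and 68.4 FPKM in siPRMT1 cells at 24 h, and at 135, 155 and 139 FPKM against 112, 118 and 118 FPKM at 72 h. The groups overlapped at 24 h and did not at 72 h. The log2 fold change with knockdown was -0.21 at 24 h (SE 0.0769, edgeR adjusted p = 0.133) and -0.30 at 72 h (SE 0.0736, adjusted p = 0.0104), under the fold threshold. Without siCtrl replicate 3 the value at 24 h was -0.16 (adjusted p = 0.0644). Lpcat3 rose over time in siCtrl (0.92, SE 0.0920, adjusted p = 1.59e-05) and siPRMT1 cells (0.85, SE 0.0588, adjusted p = 2.45e-08). Of its 2570 exon bases, 289 are shared with Emg1 on the other strand, and its level is uncertain to that extent.

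The Aster proteins carry cholesterol from the plasma membrane to the endoplasmic reticulum, and Gramd1b is known as an LXR target. Gramd1b lies at chr9:40293233-40531488 on the minus strand. Its level was 1.10, 0.99 and 0.99 FPKM in siCtrl and 1.35, 1.33 and 1.38 FPKM in siPRMT1 cells at 24 h, and 12.9, 13.3 and 13.3 FPKM against 6.53, 6.31 and 6.87 FPKM at 72 h. The siPRMT1 libraries lay above all siCtrl libraries at 24 h and under all of them at 72 h. The log2 fold change was 0.34 at 24 h (SE 0.0917, edgeR adjusted p = 0.0590), which missed the p threshold, and without siCtrl replicate 3 it was 0.30 (adjusted p = 0.0218), under the fold threshold. At 72 h Gramd1b fell (-1.01, SE 0.0691, adjusted p = 4.98e-07), to 49.9% of the control mean. The difference between the 2 effects was -1.33 (SE 0.101, edgeR adjusted p = 3.33e-06) and was called in all 12 fits without 1 library. Gramd1b rose 12.8-fold in mean FPKM over time in siCtrl cells and 4.85-fold in siPRMT1 cells.

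Gramd1a (chr7:31130127-31155936, minus strand) was at 30.4, 30.7 and 34.6 FPKM in siCtrl and 33.7, 30.1 and 34.7 FPKM in siPRMT1 cells at 24 h, and at 26.4, 27.5 and 27.01 FPKM against 20.9, 24.8 and 24.3 FPKM at 72 h. The groups overlapped at 24 h, and at 72 h the siPRMT1 libraries lay under the siCtrl libraries without passing the test (log2 fold change -0.21, SE 0.0759, edgeR adjusted p = 0.0667). At 24 h the log2 fold change was -0.01 (SE 0.0809, adjusted p = 0.968), and without siCtrl replicate 3 it was 0.05 (adjusted p = 0.616). Gramd1a fell over time in siPRMT1 cells (-0.51, SE 0.0739, adjusted p = 4.15e-05), a call that was lost without siPRMT1 replicate 1 or 3 at 24 h or replicate 1 at 72 h (-0.44 to -0.49). In siCtrl cells the value was -0.31 (SE 0.0874, adjusted p = 0.0111), under the fold threshold. Gramd1c (chr16:43980350-44065380, minus strand) had 4 to 16 counts in each library, or 0.03 to 0.10 FPKM, too few for a test of knockdown. Its log2 fold change over time in siPRMT1 cells was -0.96 (SE 0.369, adjusted p = 0.0362), a call that rests on 4 to 14 counts a library and was lost in 3 fits without 1 library and in DESeq2 (adjusted p = 0.228). Gramd1b made up 3.13% ± 0.357 of the summed FPKM of the 3 Aster genes in siCtrl and 3.96% ± 0.225 in siPRMT1 cells at 24 h, and 32.8% ± 0.238 against 22.01% ± 1.78 at 72 h (SD, n = 3).

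**Figure D3:**
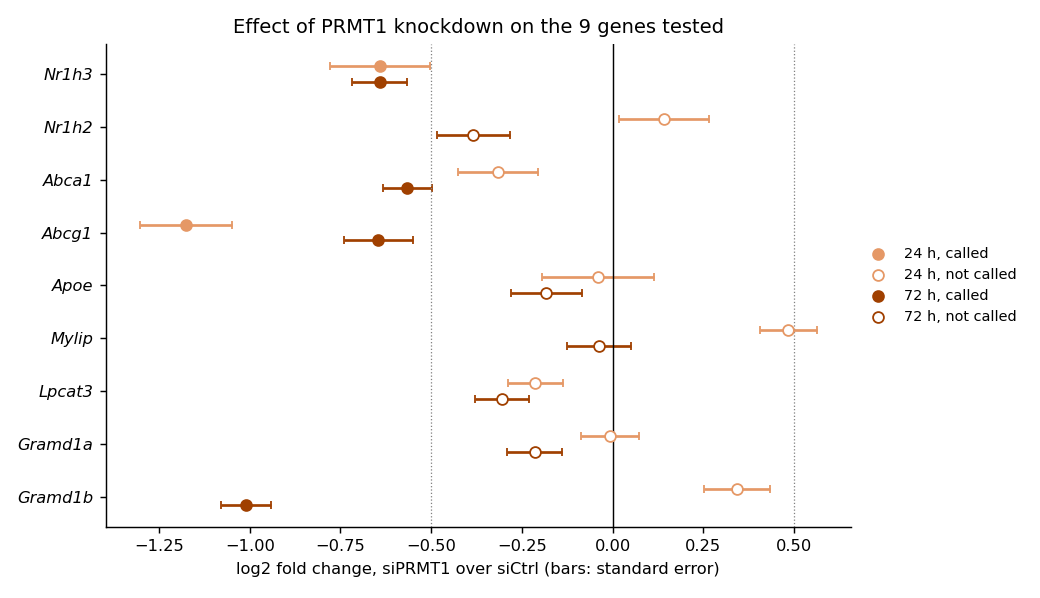
Log2 fold change of siPRMT1 over siCtrl (horizontal axis, bars are standard errors) for the 9 tested genes at 24 h and 72 h. Filled points were called and open points were not, and the dotted lines mark the fold threshold of 0.5. At 72 h all 9 values lay under 0, between -1.01 for Gramd1b and -0.04 for Mylip.

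Changes over time were tested within each siRNA. From 24 h to 72 h 6 of 9 genes rose in siCtrl cells and 0 fell, beside 22.7% of all genes called higher and 20.4% called lower. In siPRMT1 cells 5 of 10 rose and 3 fell, beside 19% and 17.4% of all genes. The difference between the knockdown effects at the 2 times was called higher for 1 gene, Abcg1, and lower for 2, Mylip and Gramd1b, beside 4.77% and 3.47% of all 14612 genes. These comparisons share their libraries with the comparisons of siRNAs. The order of the levels changed with time. In siCtrl cells at 24 h Lpcat3 (71.6 FPKM) was followed by Gramd1a and Nr1h2 (31.9 and 26.2 FPKM), Mylip and Abca1 (11.6 and 10.8 FPKM), Apoe and Nr1h3 (2.85 and 2.69 FPKM), and Abcg1 and Gramd1b (1.06 and 1.03 FPKM), and the genes of each of these pairs overlapped in their libraries. At 72 h Nr1h3 stood second in siCtrl cells (42.9 FPKM), above Nr1h2 (34.7 FPKM), and Gramd1b (13.2 FPKM) stood above Mylip (9.41 FPKM), while Apoe and Abca1 (18.6 and 16.8 FPKM) overlapped. In siPRMT1 cells at 72 h Nr1h3, Nr1h2 and Gramd1a (27.6, 26.7 and 23.3 FPKM) overlapped with their neighbours in the order, and Mylip (9.19 FPKM) stood above Gramd1b (6.57 FPKM).

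The RefSeq promoter table used here (GRCm38.p6) matched 8 of the 10 genes, all but Abcg1 and Gramd1b. In their 13 windows, from 250 bases before to 50 after a start, the half-site AGGTCA of nuclear receptors stood on either strand in 0, and in 16.3% of all 32851 windows. This says only that these letters are not in these windows.

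Of 12467 genes with a mean CPM (counts scaled to library size) of at least 1, those with a log2 pattern over the 12 libraries most like that of Nr1h3 were Agpat9, Syn2 and Acsl1, at a root mean square difference of 0.0909, 0.152 and 0.160 on the log2 scale. Acsl1, which activates long-chain fatty acids, had mean levels of 16.5 and 12.4 FPKM at 24 h and 317 and 210 FPKM at 72 h (siCtrl and siPRMT1). For Abcg1 they were Cebpa, Aoc3 and S100a16 (0.187, 0.192 and 0.203). Cebpa, a transcription factor of fat cell differentiation and 1 of the 6 adipocyte markers, had mean levels of 18.9 and 10.6 FPKM at 24 h and 75.1 and 54.8 FPKM at 72 h.

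The other genes of the pathway were taken from 9 lists, with 80 genes in all. The lists were written from general knowledge, with earlier results of these data known. Their counts and medians describe these libraries and are no independent support. Lpl, in the list of other LXR targets, is also among the adipocyte markers. At 72 h 68 of the 80 genes could be tested, of which 4 rose and 8 fell, beside 2.84% and 3.8% of all genes. At 24 h 63 could be tested, of which 2 rose and 3 fell, beside 1.95% and 1.61% of all genes. The interaction was called higher for 3 of 68 tested genes and lower for 6, beside 4.77% and 3.47% of all genes. Rxra, the partner of the receptors, was at 99.7 ± 11.4 FPKM in siCtrl and 87.1 ± 3.10 FPKM in siPRMT1 cells at 24 h, and at 87.4 ± 3.27 and 82.7 ± 5.71 FPKM at 72 h (SD, n = 3). Neither difference passed the test (log2 fold change -0.24, edgeR adjusted p = 0.107, and -0.09, adjusted p = 0.439). Without siCtrl replicate 3 the value at 24 h was -0.15 (adjusted p = 0.0343), under the fold threshold. Counts of Rxrb stand under split row names and were not tested, and Rxrg was at 0 at 24 h. None of the 12 coactivators and corepressors tested was called with edgeR at either time. At any fold, 0 at 24 h and 1 at 72 h passed the p threshold, beside 1040 of all 13689 and 2313 of all 14039 genes.

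Among 17 other LXR targets, 12 could be tested at 72 h, of which 5 fell and 1 rose, beside 3.8% of all genes called lower and 2.84% called higher. Their median log2 fold change was -0.50, beside 0.01 over all genes tested. The desaturase gene Scd1 fell from 464 ± 19.5 to 216 ± 19.7 FPKM (log2 fold change -1.11, SE 0.0789, edgeR adjusted p = 6.88e-07). The Scd1 interaction was -0.82 (SE 0.0942, edgeR adjusted p = 7.80e-05), called in all 12 fits without 1 library. The fatty acid synthase gene Fasn fell from 149 ± 11.3 to 93.8 ± 10.1 FPKM (-0.68, SE 0.0852, adjusted p = 7.29e-05), and Scd2 fell from 406 ± 18.2 to 284 ± 17.2 FPKM (-0.52, SE 0.0724, adjusted p = 1.75e-04). These 3 act in fatty acid synthesis rather than sterol export. The others that fell were Mlxipl, at 0.127 FPKM or less in each group's mean, and Apoc1 (-0.76, SE 0.242, edgeR adjusted p = 0.0422). The gene that rose was Arl4c (0.51, SE 0.153, adjusted p = 0.0331). At 24 h the Arl4c value was 0.499 (SE 0.0969, adjusted p = 0.0219), just under the fold threshold. Apoc1 and Arl4c were named after their values were seen, and fits that leave out a library are not given for these 2. Srebf1, the lipogenic regulator, was at 47.6 ± 3.31 and 38.8 ± 3.802 FPKM at 72 h (-0.30, adjusted p = 0.0211), under the fold threshold, and at 28.9 ± 6.27 and 22.3 ± 0.953 FPKM at 24 h (-0.42, adjusted p = 0.0913). Without siCtrl replicate 3 the Srebf1 value at 24 h was -0.24 (adjusted p = 0.00665). At 24 h 9 of the 17 could be tested, of which 1 fell, the phagocytic receptor gene Mertk (-0.61, SE 0.108, adjusted p = 0.0172), and 0 rose, with a median of -0.25 beside 0.01 over all genes tested. At 72 h Mertk was at 7.40 ± 0.549 FPKM in siCtrl and 9.92 ± 0.329 FPKM in siPRMT1 cells (0.41, SE 0.0783, adjusted p = 0.00213), under the fold threshold. The difference between the 2 effects was called for Mertk (interaction 1.04, SE 0.127, edgeR adjusted p = 1.28e-04), in all 12 fits without 1 library too. The Mertk call was lost in 4 of 6 fits that left out a library, siCtrl replicate 2 or any siPRMT1 replicate (adjusted p up to 0.0822), and it was kept without siCtrl replicate 3 (-0.63). Lost too were the Scd2 call without siCtrl or siPRMT1 replicate 2 (-0.49 and -0.47) and the Mlxipl call without siPRMT1 replicate 2 (adjusted p = 0.0749).

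**Figure D4:**
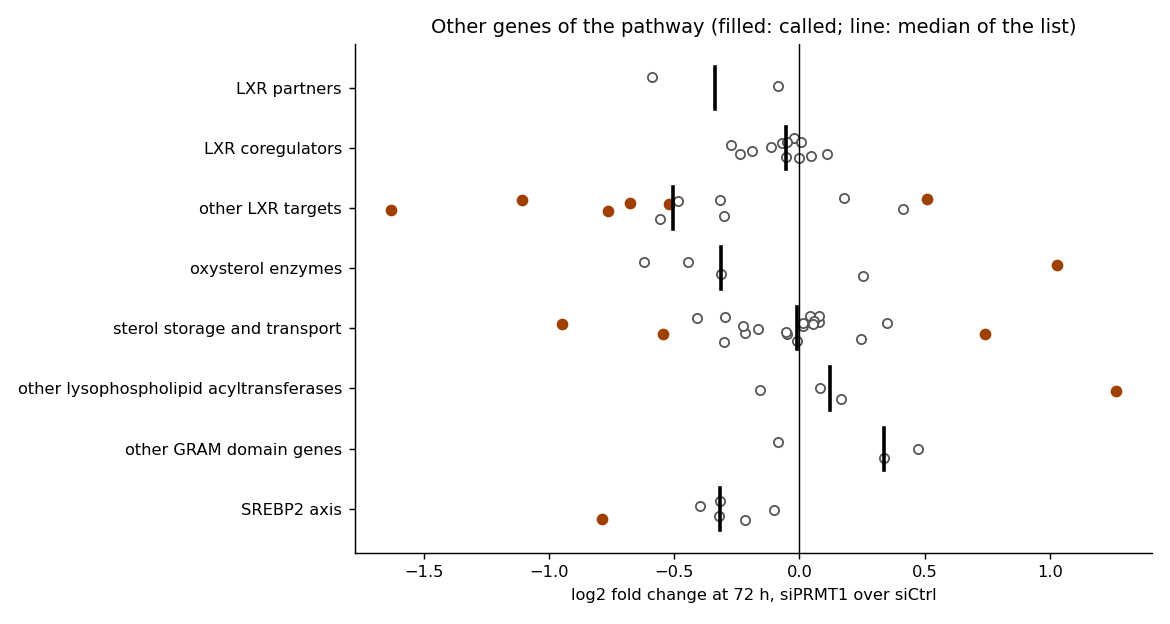
Log2 fold change at 72 h of siPRMT1 over siCtrl (horizontal axis) for the genes of 8 of the 9 pathway lists (without the receptors that IDOL degrades) that could be tested (1 point for each gene, filled where called), with the median of each list as a line. The median was -0.50 for other LXR targets and -0.05 for the 12 coregulators.

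Of the oxysterol enzymes, 4 were tested at 24 h (1 fell, 0 rose) and 5 at 72 h (1 rose, 0 fell). Of the genes of sterol storage and transport, 21 were tested at each time. Among these 21, 1 rose and 1 fell at 24 h, and 1 rose and 2 fell at 72 h. Over all genes tested, 1.95% were called higher and 1.61% lower at 24 h, and 2.84% and 3.8% at 72 h. Cyp7b1, which hydroxylates oxysterols, fell at 24 h (5.98 ± 0.148 to 4.02 ± 0.589 FPKM, log2 fold change -0.62, edgeR adjusted p = 0.0222) and rose at 72 h (2.05 ± 0.238 to 4.24 ± 0.282 FPKM, 1.03, adjusted p = 4.49e-05), with a difference between the 2 effects of 1.67 (adjusted p = 3.78e-05). Among 21 tested genes of sterol storage and transport, Scarb1, a receptor for high-density lipoprotein, fell at 72 h from 61.7 ± 3.75 to 42.5 ± 2.95 FPKM (-0.54, adjusted p = 1.75e-04). Soat2, a cholesterol esterifying enzyme of very low level here, rose at 24 h (0.167 to 0.547 FPKM in the means, 1.66, adjusted p = 0.0135) and fell at 72 h (0.503 to 0.263 FPKM, -0.95, adjusted p = 0.0350). The interaction was -2.59 for Soat2 (SE 0.402, edgeR adjusted p = 9.40e-04) and -0.65 for Scarb1 (SE 0.134, adjusted p = 0.00642). Both interactions were called in all 12 fits without 1 library. The sterol carrier gene Stard4 fell at 24 h (16.1 ± 1.07 to 11.3 ± 0.610 FPKM, -0.56, adjusted p = 0.00888), and Lcat, which esterifies cholesterol in plasma, rose at 72 h (1.75 ± 0.188 to 2.97 ± 0.142 FPKM, 0.74, adjusted p = 0.00344). The calls at 24 h were lost without siCtrl replicate 1 or 2 or siPRMT1 replicate 1 or 3 for Cyp7b1 (adjusted p up to 0.104), without siCtrl replicate 1 or siPRMT1 replicate 2 or 3 for Soat2 (up to 0.0854), and without siCtrl replicate 2 or any siPRMT1 replicate for Stard4 (up to 0.0716). Without siCtrl replicate 3 the values were -0.63 for Cyp7b1, 1.66 for Soat2 and -0.62 for Stard4, and all 3 calls were kept. At 72 h the Soat2 call was lost without siCtrl replicate 1, 2 or 3 or siPRMT1 replicate 2 or 3 (adjusted p up to 0.161), and the Scarb1 call fell just under the fold threshold without siPRMT1 replicate 1.

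Among the receptors that IDOL sends to degradation, Vldlr was at 16.4 ± 1.39 and 19.6 ± 1.10 FPKM at 24 h and at 12.6 ± 0.482 and 14.8 ± 0.686 FPKM at 72 h, with no call. Its log2 fold change at 24 h was 0.20, or 0.13 without siCtrl replicate 3. At 72 h the Vldlr value was 0.23 (SE 0.0689, edgeR adjusted p = 0.0319), which passed the p threshold and not the fold threshold. Lrp8 rose at 24 h (0.737 ± 0.127 to 1.18 ± 0.0557 FPKM, log2 fold change 0.61, edgeR adjusted p = 0.0376), a call lost without siCtrl replicate 2 or any siPRMT1 replicate (adjusted p up to 0.165) and kept without siCtrl replicate 3 (0.50). At 72 h Lrp8 was at 1.40 ± 0.0416 and 1.35 ± 0.0656 FPKM, with no call (-0.06, edgeR adjusted p = 0.738). The Lrp8 interaction was -0.64 (SE 0.163, edgeR adjusted p = 0.0200), a call lost in 2 of 12 fits without 1 library. These are RNA levels, and IDOL acts on the receptor proteins. Of 4 other lysophospholipid acyltransferases tested, 1 rose at 72 h and 0 fell, beside 2.84% and 3.8% of all genes. This was Lpcat2 (0.337 ± 0.0702 to 0.830 ± 0.0400 FPKM, 1.27, edgeR adjusted p = 5.32e-04). The Lpcat2 interaction was 1.22 (SE 0.225, edgeR adjusted p = 0.00303), called in all 12 fits without 1 library. Of 6 genes of the SREBP2 axis, which drives cholesterol synthesis, 1 fell at 72 h and 0 rose. This was Insig1 (56.8 ± 1.89 to 33.0 ± 0.265 FPKM, -0.79, edgeR adjusted p = 2.31e-06). The Insig1 interaction was -0.77 (SE 0.0905, edgeR adjusted p = 9.69e-05), called in all 12 fits without 1 library. No gene of the acyltransferase and SREBP2 lists was called at 24 h. None of the 3 other GRAM domain genes was called with edgeR. At any fold, 0 of these 3 at 24 h and 1 at 72 h passed the p threshold, beside 1040 of all 13689 and 2313 of all 14039 genes.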

How the data were processed

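Total RNA libraries of 12 samples were prepared with an mRNA library kit and sequenced by the study. The authors deposited raw read counts and FPKM per gene, 1 table each. Per the labels and the study's methods, reads were trimmed with cutadapt 1.11 and mapped with HISAT2 2.1.0 to mm10, and the submitters' processing notes also list RSEM 1.2.6 with no role. The counter and strand setting are not given in the sources used here. FPKM computed from the counts and gene lengths differed from the deposited FPKM by at most 0.005.

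The 10 genes and the lists were chosen with earlier results of these data known. Counts were tested with edgeR 4.0.16 in R 4.3.3 (quasi-likelihood test, TMM, filterByExpr) on the 6 libraries of each comparison and on all 12 for the interaction, with Benjamini-Hochberg adjustment over all genes tested. Alternatives were DESeq2 1.42.0, RLE normalization, other filters, all 12 libraries in 1 model, the replicate number as a block, no fold threshold, limma 3.58.1 on log2(FPKM + 1) or log2(FPKM + 0.1), and each library left out in turn. A count of 3 in a library corresponded to a CPM of 0.0708 to 0.198. Named pathway genes were those called in a list with the smallest p, up to 4 a list in each of the 3 comparisons that involve knockdown, with Rxra, Srebf1 and Vldlr added whatever their values; 1 further gene of this rule is not reported here. Likeness was the root mean square difference of centred log2 CPM over the 12 libraries.

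A longer receptor motif was also searched in the promoter windows and is not reported here.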

Additional observations from a re-analysis of the deposited data

Results flagged for a closer look

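The effects of PRMT1 knockdown at 24 h and 72 h differed by edgeR's interaction test for 3 of the 9 genes, beside 4.77% of all genes called higher and 3.47% called lower. For Abcg1 the difference was 0.55 on the log2 scale, from a larger fall at 24 h to a smaller fall at 72 h. Leaving out a library ended that call in 10 of 12 fits, and the value was -0.019 on log2(FPKM + 1). For Mylip it was -0.50, with a value above 0 at 24 h and a value near 0 at 72 h, and leaving out a library ended the call in 5 of 12 fits. For Gramd1b it was -1.33, and its siPRMT1 libraries lay above the siCtrl libraries at 24 h and under them at 72 h. The Gramd1b call was kept in all 12 such fits.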

How the results depend on the processing

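Of the values of the 10 genes under the alternatives that kept all libraries, 413 kept their direction and their side of the thresholds, 14 lost a call, 9 gained one and 9 changed sign, and of those without 1 library 288 kept both, 26 lost a call, 2 gained one and 13 changed sign. The cause was not tested for any of these changes. At 24 h the count of genes called higher was 1 with no fold threshold and with log2(FPKM + 0.1), and the count called lower was 0 with log2(FPKM + 1), with or without a filter, and 1 with log2(FPKM + 0.1). The limma fits with a filter on FPKM tested 8 of the genes at 24 h and not Abcg1. At 72 h the count called lower was 3 with log2(FPKM + 1), where Abcg1 was at -0.49. For the interaction the count called higher was 0 in all 3 limma fits, and the count called lower was 1 without a filter on counts. Over time the count called lower was 2 in siCtrl cells with no fold threshold, and 1 in siPRMT1 cells in the 3 limma fits. Without 1 library, the counts ranged from 0 to 1 higher and 1 to 2 lower at 24 h, 0 to 1 higher and 1 to 3 lower for the interaction, and 1 to 3 lower over time in siPRMT1 cells. The sign changed for Gramd1a at 24 h with limma (0.041, 0.042 and 0.041), for Nr1h3 in the interaction with at least 10 counts in every library (-0.003585) and with limma (-0.21, -0.0663 and -0.21), and for Abcg1 in the interaction with log2(FPKM + 1), with or without a filter (-0.019). Without 1 library the sign also changed for Apoe (-0.18 to 0.027), Gramd1a (-0.054 to 0.047) at 24 h, Mylip (-0.12 to 0.011) at 72 h, and Nr1h3 (-0.096 to 0.10), Apoe (-0.22 to 0.0015) and Lpcat3 (-0.17 to 0.0026) in the interaction. Between same-numbered libraries, deviations from the group means had correlations of -0.17 to 0.22. With 3 libraries a group, these values cannot decide whether replicate numbers pair the libraries. With the replicate number as a block Nr1h2 gained a call in the interaction (-0.52) and Gramd1c lost its call over time (edgeR adjusted p = 0.0561). Over all genes, 267 were called higher and 220 lower at 24 h, against 441 and 599 with no fold threshold, 166 and 80 with log2(FPKM + 1), 504 and 369 without siCtrl replicate 3, and 61 and 62 without siPRMT1 replicate 3. At 72 h 399 and 534 were called, against 1058 and 1255 with no fold threshold and 144 and 244 with log2(FPKM + 1). Of the calls, 54.8% were higher at 24 h and 57.9% in the interaction, against 67.5% and 38.9% with log2(FPKM + 1). Gramd1c had 4 to 16 counts a library, too few for the main test in the knockdown comparisons.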
